A study of Mus musculus with 6 samples.

Results

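10 genes of the Notch pathway and of secretory fate were followed in RNA sequencing of mouse pylorus, where the stomach opens into the duodenum. They are the receptors Notch1 and Notch2, the ligands Dll1, Dll4, Jag1 and Jag2, the targets Hes1, Hey1 and Nrarp, and the fate factor Atoh1. They were taken by symbol, and each of the 10 matched 1 of the 39179 Ensembl genes with a deposited RPKM (reads per kilobase of gene, scaled to library size). The libraries fall into 2 groups of 3. Sox2 KO mice carried Sox2 fl/fl and Rosa26CreER, a tamoxifen-dependent Cre driven from a locus active in most cell types. Sox2 WT mice carried Sox2fl/fl with the Rosa26WT locus and no CreER. Both groups were C57BL/6 x 129 mixed, received tamoxifen at 8 weeks of age and were sampled 2 weeks later. The pylorus was chilled, its muscle layer was pulled off, and the epithelium with its mesenchyme gave the RNA. Whether each library is a separate animal is not stated, so the p-values below reflect only how these libraries vary. An effect of CreER itself cannot be told apart from that of losing Sox2.

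Notch receptors are cut when a ligand on a neighbouring cell binds them, first by ADAM proteases and then by gamma-secretase. The freed intracellular domain joins the DNA-binding protein RBPJ to switch on targets such as Hes1. In the mouse intestine HES1 represses Atoh1, the basic helix-loop-helix factor required for goblet, Paneth and enteroendocrine cells, so that Notch signalling holds back secretory fate. In the stomach Notch signalling acts on antral gland stem cells, and in blood vessels Dll4, Notch1 and Notch4 belong to endothelial cells and Jag1 and Notch3 to the vessel wall.

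The denominators behind the RPKM, recovered from the values, ran from 24141183 to 33919303 reads per library, and between 20180 and 20550 genes were above 0. Reads per gene were recovered as the smallest whole numbers that give the deposited values. Sox2 had 25, 15 and 35 reads in Sox2 KO replicates 1 to 3, against 657, 622 and 683 reads in Sox2 WT replicates 1 to 3 (log2 fold change -3.72, SE 0.147, limma adjusted p = 2.9e-04, range over alternatives 2.5e-04 to 0.154, the last from male libraries alone). The 8 pyloric and antral stomach markers, led by Tff1 and Gkn2, summed to 141000 to 198000 RPKM in Sox2 KO and 123000 to 177000 RPKM in Sox2 WT. By Xist and Y-linked genes the 3 Sox2 KO libraries and Sox2 WT replicate 1 were male and Sox2 WT replicates 2 and 3 female. Sex thus differed along with genotype, and adjusting for it leaves Sox2 WT replicate 1 as the only library to compare with Sox2 KO.

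No difference in the Notch genes was found between Sox2 KO and Sox2 WT pylorus beyond the spread of the libraries. None of the 9 members tested passed the threshold in either direction, and in each of the 9 the Sox2 KO values overlapped the Sox2 WT values. Atoh1 was close to absent, at 1 read at most in any library. The test was limma on log2(RPKM + 0.5) over the 14045 genes with a mean of at least 0.5 RPKM, with Benjamini-Hochberg adjustment and a threshold of 0.05. It called 0 of the 9 members, beside 4 of all tested genes (0.0285%), of which 2 were higher (0.0142%) and 2 lower (0.0142%) in Sox2 KO. Before adjustment, 0 of the 9 had a p under 0.05 (442 of all tested genes, 3.15%), and 0 of the 9 had groups that did not overlap (995 of all tested genes, 7.08%). With limma's voom on the recovered reads 0 members passed either, and 0 had an unadjusted p under 0.05. The 9 log2 fold changes ran from -0.24 to 0.24 with a median of -0.02, against a median of 0.02 over all tested genes, and 4 were positive and 5 negative (56.8% of all tested genes were positive). The median size of a member's log2 fold change, 0.108, was near that of all tested genes, 0.0893. The 95% intervals lay between -0.63 and 0.98, and for 7 of the 9 they stayed within a factor of 1.5 on the RPKM + 0.5 scale in both directions.

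**Figure D1:**
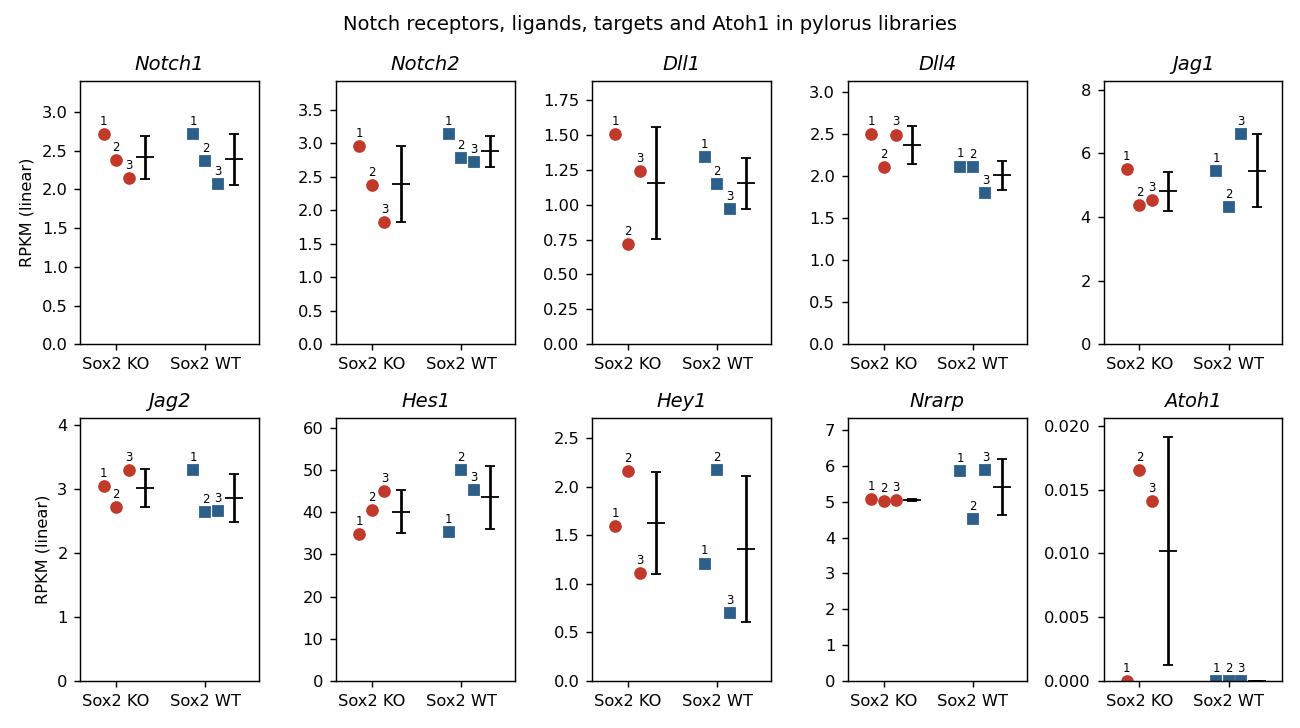
RPKM of the 10 members on linear axes that start at 0, with Sox2 KO libraries as red circles and Sox2 WT libraries as blue squares, numbered by replicate, and the mean with its SD (n = 3) as a black bar. The groups overlap in all 10 panels, and the axis of Atoh1 ends near 0.02 RPKM.

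**Figure D2:**
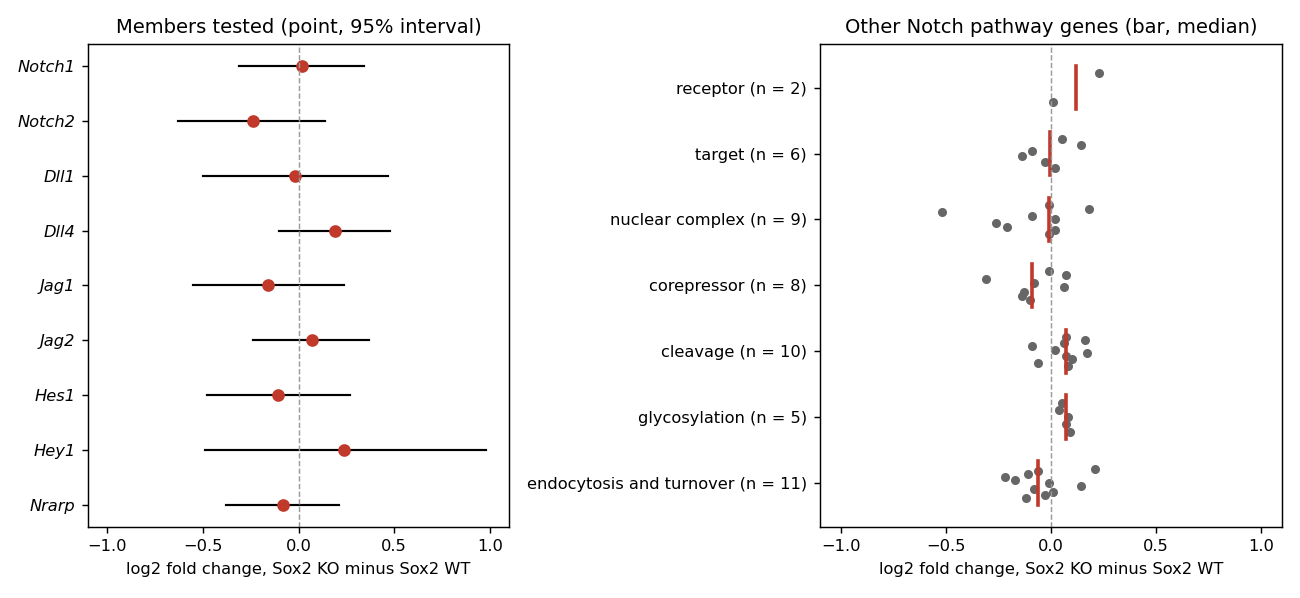
Log2 fold changes (Sox2 KO minus Sox2 WT, log2(RPKM + 0.5) scale) of the 9 members tested, as points with 95% intervals, and of the 51 other Notch pathway genes tested, as grey points by role with a red bar at the median. Each interval on the left crosses 0, and the points on the right lie between -0.52 and 0.23.

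Notch1 (ENSMUSG00000026923, chromosome 2, 26457903 to 26516663, mm10), the receptor best known from arteries, T cells and gut crypts, was at 2.71, 2.38 and 2.15 RPKM in Sox2 KO (replicates 1 to 3 in order, here and below) and at 2.72, 2.37 and 2.07 RPKM in Sox2 WT. The means were 2.41 ± 0.279 RPKM in Sox2 KO and 2.39 ± 0.327 RPKM in Sox2 WT (SD, n = 3 each), and the log2 fold change was 0.02 (95% interval -0.31 to 0.34). The groups overlapped almost entirely, and the sign of this small difference turned negative, at -0.003 and -0.004, under median-of-ratios scaling and quantile normalization. Notch2 (ENSMUSG00000027878, chromosome 3, 98013527 to 98150361), which acts with Notch1 in intestinal and antral progenitors of mice, was at 2.96, 2.38 and 1.82 RPKM in Sox2 KO, against 3.14, 2.77 and 2.72 RPKM in Sox2 WT. Sox2 KO replicate 1 lay inside the Sox2 WT range and the other Sox2 KO libraries below it (log2 fold change -0.24, SE 0.165, unadjusted p = 0.182, limma adjusted p = 1.00). Without Sox2 KO replicate 1 the log2 fold change of Notch2 was -0.38, with an unadjusted p of 0.0457 and a limma adjusted p of 0.972 (range over alternatives 0.972 to 1.00). Without Sox2 KO replicate 3 it was -0.10, with an unadjusted p of 0.509. Notch1 rested on 748 to 1145 reads per library and Notch2 on 647 to 924, so that counting error was about 3.22% and 3.6% of their levels. Reads of Notch1 and of 0610009E02Rik and Gm13568, which lie on the opposite strand within it and were at most at 0.453 RPKM, cannot be told apart, since the strandedness of the libraries is not given in the sources used here.

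Within the receptor family, Notch4, an endothelial receptor, had the highest level per length in 5 of the 6 libraries. Its share of the summed RPKM of Notch1 to Notch4 was 40.0%, 35.2% and 36.1% in Sox2 KO and 30.7%, 26.3% and 37.5% in Sox2 WT. The share of Notch2 was 25.2%, 26.1% and 22.3% in Sox2 KO, against 29.5%, 31.8% and 29.6% in Sox2 WT, and here the groups did not overlap. The same contrast taken as the ratio of Notch2 to Notch1 within a library was 1.09, 0.998 and 0.846 in Sox2 KO and 1.16, 1.17 and 1.32 in Sox2 WT. The difference of its log2 was -0.31. By exact permutation, two-sided, p was 0.1, which is the lowest that 3 against 3 libraries can reach (0.4 adjusted over the 4 ratios computed). These ratios were chosen with earlier results of these data known, and the shares after the data were seen. The receptor sum itself was 9.68 ± 1.87 RPKM in Sox2 KO and 9.52 ± 1.03 RPKM in Sox2 WT (SD, n = 3 each).

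**Figure D3:**
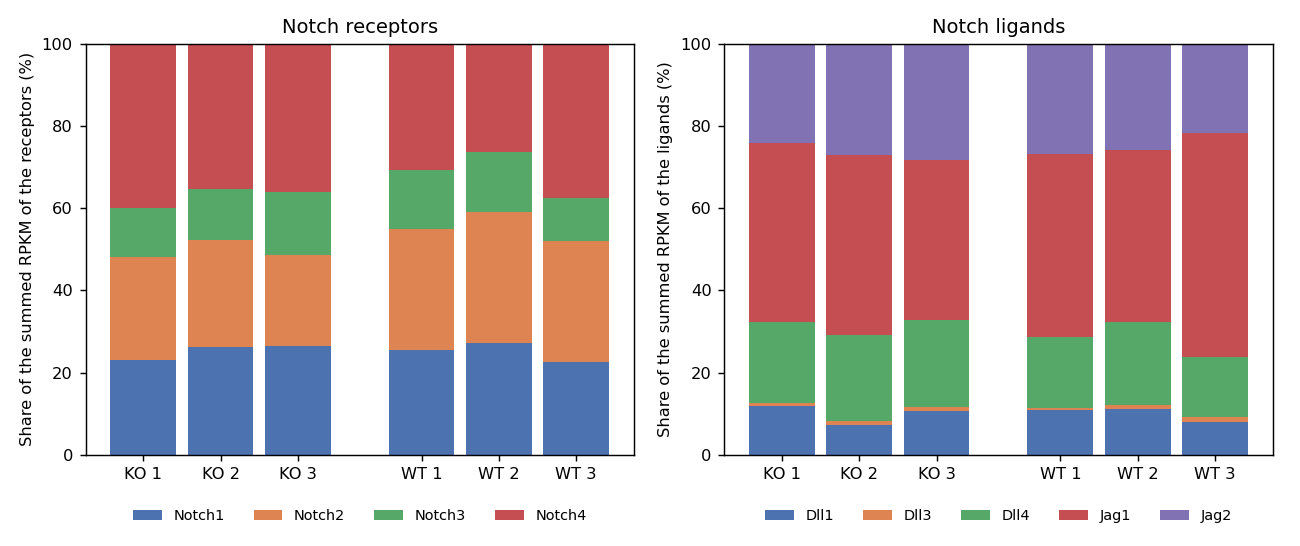
Share, in percent, of each receptor in the summed RPKM of Notch1 to Notch4 and of each ligand in that of Dll1, Dll3, Dll4, Jag1 and Jag2, with 1 bar per library and the 3 Sox2 KO libraries on the left of each panel. Notch2 takes 22.3% to 26.1% in Sox2 KO and 29.5% to 31.8% in Sox2 WT, while Jag1 is the largest ligand share in every library.

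Among the ligands Jag1 led. Jag1 (ENSMUSG00000027276, chromosome 2, 137081456 to 137116644), a Jagged ligand of epithelium and vessel wall, was at 5.51, 4.37 and 4.54 RPKM in Sox2 KO, against 5.46, 4.3 and 6.62 RPKM in Sox2 WT. Sox2 WT replicate 3 alone stood above the rest, and the log2 fold change of -0.16 (SE 0.168) shrank to -0.02 without it. Jag2 (ENSMUSG00000002799, chromosome 12, 112907819 to 112929776), the second Jagged ligand, was at 3.04, 2.71 and 3.29 RPKM in Sox2 KO, against 3.29, 2.64 and 2.65 RPKM in Sox2 WT (log2 fold change 0.07, 95% interval -0.24 to 0.37). The length that turns the reads of Jag2 into RPKM was 4028 bases, shorter than the 6965 exon bases of GENCODE release 21. The same reads divided by the annotated length give a mean over all libraries of 1.7 rather than 2.94 RPKM. Reads on the further bases are not known and could raise that value. Dividing the same reads by another length scales all libraries alike, so the ratio of the group means of RPKM stays as it is.

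Dll4 (ENSMUSG00000027314, chromosome 2, 119325784 to 119335962), the Delta ligand of endothelial tip cells that also serves intestinal crypts, was at 2.5, 2.1 and 2.49 RPKM in Sox2 KO and at 2.11, 2.1 and 1.8 RPKM in Sox2 WT. Sox2 KO replicates 1 and 3 were above every Sox2 WT library and replicate 2 was not. The means were 2.36 ± 0.229 RPKM in Sox2 KO and 2.0 ± 0.179 RPKM in Sox2 WT (SD, n = 3 each), with a log2 fold change of 0.19 (SE 0.125, unadjusted p = 0.165, limma adjusted p = 1.00), which had the smallest unadjusted p of the 9. Gm14207, on the opposite strand within Dll4, was at 0.954, 0.802 and 0.688 RPKM in Sox2 KO and 0.604, 0.754 and 0.657 RPKM in Sox2 WT; its part in the reads of Dll4 was not tested, nor that of A930024N18Rik, opposite Dll1 and at most at 0.135 RPKM. Dll1 (ENSMUSG00000014773, chromosome 17, 15367354 to 15376872), the Delta ligand of early secretory progenitors in the mouse intestine, was at 1.51, 0.722 and 1.24 RPKM in Sox2 KO, on 206, 96 and 193 reads. In Sox2 WT it was at 1.34, 1.15 and 0.968 RPKM, from 148, 147 and 113 reads. Its Sox2 KO libraries thus held both the highest and the lowest value of Dll1, and the log2 fold change was -0.02 (95% interval -0.5 to 0.47), or 0.19 without Sox2 KO replicate 2. The ligand sum was 11.4 ± 1.35 RPKM in Sox2 KO and 11.6 ± 1.12 RPKM in Sox2 WT (SD, n = 3 each). The ratio of Dll4 to Dll1 was 1.65, 2.9 and 2.0 in Sox2 KO and 1.58, 1.83 and 1.86 in Sox2 WT (exact two-sided permutation p = 0.4). That of Jag2 to Jag1 was 0.552, 0.62 and 0.725 in Sox2 KO and 0.603, 0.613 and 0.4 in Sox2 WT (exact two-sided permutation p = 0.4).

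Hes1 (ENSMUSG00000022528, chromosome 16, 30064384 to 30067796), the repressor through which Notch acts on Atoh1 in the mouse intestine, was by far the most abundant member. Its level was 34.9, 40.5 and 45.0 RPKM in Sox2 KO, from 1974, 2238 and 2904 reads, against 35.4, 49.9 and 45.2 RPKM in Sox2 WT, from 1623, 2661 and 2190 reads. The means were 40.1 ± 5.1 RPKM in Sox2 KO and 43.5 ± 7.43 RPKM in Sox2 WT (SD, n = 3 each). Over all libraries Hes1 was above 90.4% of tested genes, the groups overlapped, and the log2 fold change was -0.11 (95% interval -0.48 to 0.27). The male Sox2 WT library had the lowest Hes1 level of its group, so that with sex as a covariate the log2 fold change was 0.17 (limma adjusted p = 0.999, range over alternatives 0.993 to 1.00). Among the tested genes, Slc29a2, Il15 and Ndufb2 had the profiles most like that of Hes1 over the 6 libraries, with root mean square differences of 0.0451, 0.0524 and 0.057 on the log2 scale where Hes1 itself spanned 0.513, and 95 genes came within 0.1. Hes1 made up 72.1 ± 2.5% of the summed RPKM of 7 Hes and Hey genes in Sox2 KO and 74.0 ± 0.903% in Sox2 WT (SD, n = 3 each), followed by Hes6, while Hes5 and Hes7 were at most at 0.130 RPKM.

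Hey1 (ENSMUSG00000040289, chromosome 3, 8663359 to 8667256), a target common in vessels, was the most variable of the tested members. It was at 1.6, 2.16 and 1.11 RPKM in Sox2 KO, from 105, 138 and 83 reads, against 1.21, 2.17 and 0.695 RPKM in Sox2 WT, from 64, 134 and 39 reads. The highest library was 3.13-fold above the lowest, and the spread within Sox2 WT, 55.3% of the mean, was well above the 10.3% that counting alone gives. The log2 fold change was 0.24 (95% interval -0.49 to 0.98); it was 0.54 without Sox2 WT replicate 2 and -0.04 without Sox2 WT replicate 3. The ratio of Hey1 to Hes1 was 0.046, 0.0533 and 0.0247 in Sox2 KO and 0.0341, 0.0436 and 0.0154 in Sox2 WT (exact two-sided permutation p = 0.5). The length behind the RPKM of Hey1 was 2198 bases, against 3265 exon bases in the annotation. The same reads over the annotated length give a mean over all libraries of 1.0 rather than 1.49 RPKM. That value leaves out any reads on the further bases.

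Nrarp (ENSMUSG00000078202, chromosome 2, 25180758 to 25183339), a target that damps Notch signalling by destabilising the intracellular domain, was the steadiest in Sox2 KO, at 5.08, 5.03 and 5.04 RPKM, against 5.86, 4.51 and 5.88 RPKM in Sox2 WT. The Sox2 KO values lay inside the Sox2 WT range, and the log2 fold change was -0.08 (95% interval -0.38 to 0.21). The spread of Nrarp in Sox2 KO, 0.478% of the mean, was below the 5.13% expected from counting its 325 to 440 reads, so it cannot be read as a measured precision. Gm38287, annotated on the opposite strand, overlaps Nrarp, and its reads were not analysed here. The 250 bases before the start of Nrarp (RefSeq, GRCm38.p6, chr2:25180508-25180757, plus strand) are shown because a promoter is where RBPJ and HES proteins would bind a Notch target, with matches to the N-box, a HES binding motif, in capitals:
Nrarp: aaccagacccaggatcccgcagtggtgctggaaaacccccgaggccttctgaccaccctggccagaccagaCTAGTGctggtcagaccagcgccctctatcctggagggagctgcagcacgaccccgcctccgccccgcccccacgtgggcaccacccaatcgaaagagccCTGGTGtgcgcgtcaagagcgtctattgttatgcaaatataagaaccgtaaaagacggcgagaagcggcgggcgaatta
Both matches read CACNAG on the minus strand, at bases -179 to -174 and -79 to -74 from the start. RefSeq promoter windows of 300 bases (250 before the start and 50 after) were given for 8 of the 10 members, in 9 windows, with none for Hes1 and Hey1. On both strands the RBPJ core TGGGAA was found in 0 of these 9 windows, against 25.6% of all 32851 windows, and so was GTGGGAA, which contains it (6.38% of all). The N-box CACNAG was in 6 of the 9 (42.5% of all), the E-box CANNTG in 4 (72.3% of all) and the SOX core CATTGTT in 0 (3.78% of all). These are matches of letters in a short window, and the Notch enhancers of these genes can lie outside it.

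Atoh1 (ENSMUSG00000073043, chromosome 6, 64729125 to 64731245) had 0, 1 and 1 reads in Sox2 KO replicates 1 to 3, which is 0, 0.0165 and 0.0141 RPKM, against 0, 0 and 0 reads in Sox2 WT replicates 1 to 3. Over the Sox2 KO group these are 2 reads, with an exact 95% Poisson interval of 0.242 to 7.22 reads. The Sox2 WT group has 0 reads, with an interval of 0 to 3.69 reads. The upper ends correspond to 0.0373 RPKM in Sox2 KO and 0.0228 RPKM in Sox2 WT. In a single library 3 reads correspond to 0.0424 to 0.0495 RPKM in Sox2 KO and 0.0513 to 0.0595 RPKM in Sox2 WT. These limits cover counting error only. Each library lay under its level at 3 reads, so no fold change is given. An exact two-sided permutation test on RPKM gave p = 0.4. In whole tissue RNA, fewer cells expressing a gene and less RNA per cell cannot be told apart, and rare Atoh1-positive cells would not be detectable at this depth. The ratio of Atoh1 to Hes1 was not computed, because Atoh1 was listed at 0 in 4 libraries. As the profile of Atoh1 was flat near 0, the tested genes nearest to it, Man2c1, Plod3 and Ppp6c, were ones that varied little, and 2439 genes came within 0.1. The bases before the start of Atoh1 (RefSeq, GRCm38.p6, chr6:64728875-64729124, plus strand) are shown beside those of Nrarp as the promoter of the member with almost no reads; they hold no match to the motifs above, and the 1 N-box of its window lies at bases 24 to 29 after the start:
Atoh1: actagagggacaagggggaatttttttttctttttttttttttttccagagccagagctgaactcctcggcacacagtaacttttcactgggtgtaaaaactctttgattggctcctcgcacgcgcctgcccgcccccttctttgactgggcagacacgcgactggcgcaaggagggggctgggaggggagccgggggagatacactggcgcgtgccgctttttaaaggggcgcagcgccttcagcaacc

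In order of level over all 6 libraries, the members ran Hes1 (41.8 RPKM), Nrarp (5.23), Jag1 (5.13), Jag2 (2.94), Notch2 (2.63), Notch1 (2.4), Dll4 (2.18), Hey1 (1.49), Dll1 (1.15) and Atoh1 (0.0051). Hes1 stood apart from Nrarp in every library, Jag1 from Jag2, and Dll1 from Atoh1. All other neighbours in that order overlapped in both groups and do not differ beyond their spread. The order rests on the authors' gene lengths, which for Jag2 and Hey1 differ from the annotation as given above.

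In the rest of the pathway no gene passed either. Of 59 further Notch pathway genes, 51 were tested, and 0 rose and 0 fell at an adjusted p under 0.05 in limma, with 0 at an unadjusted p under 0.05 and 0 by voom. Their median log2 fold change was 0.01, with 26 positive and 25 negative, and in 0 of the 51 did the groups fail to overlap. Of all tested genes 0.0285% passed, 3.15% had an unadjusted p under 0.05, 7.08% had groups that did not overlap and 56.8% were positive. Notch4 was at 4.71, 3.22 and 2.95 RPKM in Sox2 KO and 3.28, 2.29 and 3.44 RPKM in Sox2 WT (log2 fold change 0.23, SE 0.204), and Notch3, of the vessel wall, differed by 0.01 on the log2 scale (SE 0.159). The sheddase Adam10, at 79.7, 66.5 and 56.5 RPKM in Sox2 KO and 66.7, 54.7 and 69.7 RPKM in Sox2 WT, and the gamma-secretase subunit Ncstn (log2 fold change 0.17, SE 0.132) were the most abundant of the 10 genes of receptor cleavage, whose median was 0.07. Among 9 genes of the nuclear complex, Snw1 (0.02, SE 0.0902) and Kat2a (0.18, SE 0.115) had the highest levels, each with its log2 fold change in parentheses. The lowest log2 fold change in the whole list, -0.52, was that of the acetyltransferase gene Crebbp. Crebbp was at 3.69, 3.12 and 2.2 RPKM in Sox2 KO and 7.34, 3.26 and 3.65 RPKM in Sox2 WT, so that Sox2 WT replicate 1, the male library of its group, stood apart. Its log2 fold change was -0.19 without that library and -1.18 against that library alone. Crebbp passed the threshold in no alternative. The 2 most abundant genes of the other roles had log2 fold changes between -0.06 and 0.14. They were the corepressor genes Ctbp1 (0.06, SE 0.111) and Hdac2 (0.07, SE 0.14), the fringe gene Rfng (0.08, SE 0.121), the O-fucosyltransferase gene Pofut1 (0.04, SE 0.115), the ubiquitin ligase genes Nedd4 (-0.06, SE 0.118) and Neurl3 (0.14, SE 0.143), and Hes6 (0.02, SE 0.133) and Dtx4 (0.05, SE 0.128). Hes6 and Dtx4 stood under targets in the gene list used here. Whether either responds to Notch in this tissue was not tested, so their values are not a measure of Notch output.

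The 8 other Notch pathway genes lay under the filter, among them all 4 of the remaining ligand genes. Dll3, a Delta-like gene of neuroendocrine cells, was between 0.0653 and 0.136 RPKM in all libraries. Dner, a Notch ligand gene known from neurons, was at 0.334, 0.333 and 0.334 RPKM in Sox2 KO, from 36, 35 and 41 reads, against 0.63, 0.611 and 0.466 RPKM in Sox2 WT, from 55, 62 and 43 reads. The groups did not overlap for Dner, as for 7.08% of all tested genes. Without the filter its log2 fold change of -0.36 did not pass (unadjusted p = 0.0106, limma adjusted p = 0.965, range over alternatives 0.965 to 1.00). Its Sox2 KO values lie closer together (SD 0.000714 RPKM) than counting 35 to 41 reads would give. They cannot be read as a measured precision.

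The listed transcription factors of secretory lineages had log2 fold changes from -0.44 to 0.85, and 0 of the 12 tested and reported here passed in limma. Their median log2 fold change was 0.03. Neurog3, Insm1 and Pou2f3, 3 of the 12, had groups that did not overlap, and the same 3 had an unadjusted p under 0.05. Over all tested genes 7.08% had groups that did not overlap and 3.15% an unadjusted p under 0.05. Neurog3, Insm1, Pou2f3, Neurod1, Spdef and Gfi1 were named after their values were seen.

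Neurog3, which specifies enteroendocrine cells, was at 1.33, 1.5 and 1.13 RPKM in Sox2 KO and 2.37, 1.67 and 1.83 RPKM in Sox2 WT (log2 fold change -0.43, SE 0.155, unadjusted p = 0.0265, limma adjusted p = 1.00, range over alternatives 0.716 to 1.00). Fam241b overlaps it on the opposite strand. Insm1, an enteroendocrine factor acting downstream of it, was at 2.42, 2.52 and 3.22 RPKM in Sox2 KO and 4.71, 3.55 and 3.36 RPKM in Sox2 WT (log2 fold change -0.44, SE 0.162, unadjusted p = 0.0294, limma adjusted p = 1.00, range over alternatives 0.851 to 1.00). Pou2f3, which specifies tuft cells, went the other way, at 1.49, 2.69 and 1.85 RPKM in Sox2 KO and 0.742, 0.917 and 0.941 RPKM in Sox2 WT (log2 fold change 0.85, SE 0.192, unadjusted p = 0.00272, limma adjusted p = 0.58, range over alternatives 0.446 to 1.00). The enteroendocrine factor Neurod1 overlapped between the groups (log2 fold change -0.22, SE 0.177). Its log2 fold change was -0.05 without Sox2 WT replicate 1, the male one, and -0.56 against that library alone. The limma adjusted p of Neurod1 was at least 0.972 in every alternative. Spdef, a goblet and mucous cell factor downstream of Atoh1 in the mouse intestine, was at 17.5, 19.8 and 21.8 RPKM in Sox2 KO and 15.9, 21.8 and 19.1 RPKM in Sox2 WT, abundant in libraries with at most 1 Atoh1 read. The other most abundant factors, Klf4 (-0.16, SE 0.209), Xbp1 (0.01, SE 0.118), Creb3l1 (0.06, SE 0.101) and Foxa3 (0.06, SE 0.137), did not pass. Gfi1, which lies downstream of Atoh1 in the mouse intestine, was under the filter at 0.00794 to 0.0461 RPKM.

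**Figure D4:**
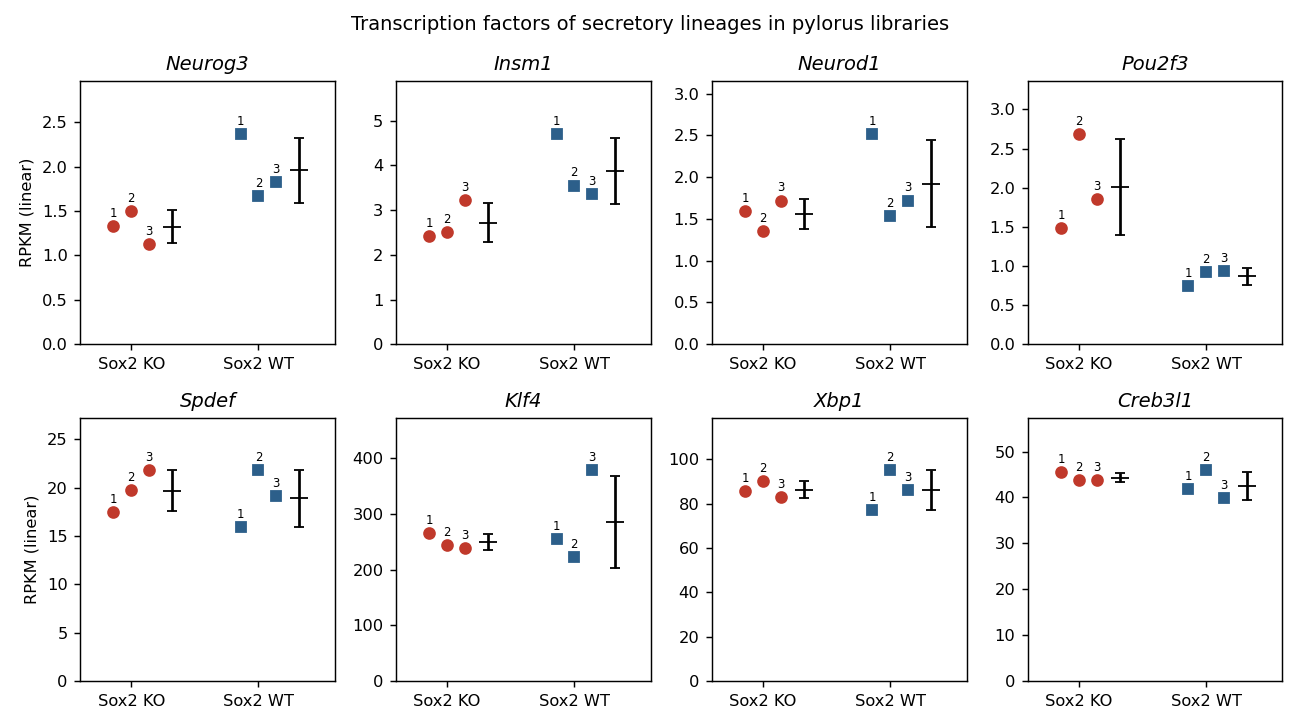
RPKM of 8 transcription factors of secretory lineages on linear axes that start at 0, with Sox2 KO libraries as red circles and Sox2 WT libraries as blue squares, numbered by replicate, and the mean with its SD (n = 3) as a black bar. Neurog3 and Insm1 are lower and Pou2f3 higher in the 3 Sox2 KO libraries without overlap, while the other 5 overlap.

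Goblet cells depend on Atoh1 in the mouse intestine. Some genes of the goblet list, led by Clca3 and Agr2, had high values in libraries with at most 1 Atoh1 read, while Muc2 and Ang4 did not. Which cells those reads came from was not tested. The 10 genes of that list summed to 3740 to 5290 RPKM in Sox2 KO and 1110 to 2840 RPKM in Sox2 WT, and 0 of the 7 tested passed in limma although 6 had an unadjusted p under 0.05 (3.15% of all tested genes) and 4 had groups that did not overlap (7.08% of all tested genes). Itln1, an intelectin gene, was at 57.4, 266 and 177 RPKM in Sox2 KO and 3.03, 3.34 and 6.68 RPKM in Sox2 WT (log2 fold change 4.93, SE 0.549, limma adjusted p = 0.0577, range over alternatives 0.00513 to 0.611), and it passed without Sox2 KO replicate 1. Zg16, a lectin gene of goblet cells, was at 930, 742 and 381 RPKM in Sox2 KO and 89, 22 and 27.9 RPKM in Sox2 WT (log2 fold change 4.06, SE 0.547, limma adjusted p = 0.127, range over alternatives 0.0353 to 0.707), and it passed without Sox2 WT replicate 1. Both were named after their values were seen. Clca3 was at 3240, 2830 and 1730 RPKM in Sox2 KO and 517, 131 and 1010 RPKM in Sox2 WT (log2 fold change 2.62, SE 0.69, limma adjusted p = 0.838, range over alternatives 0.383 to 1.00), and Agr2, of mucous cells at large, differed by -0.48 on that scale (SE 0.309). The intestinal mucin gene Muc2 was at 0.333, 0.887 and 0.497 RPKM in Sox2 KO and 0.308, 0.301 and 0.389 RPKM in Sox2 WT, and Ang4 was at 0 in all libraries. The length behind the RPKM of Muc2 was 2016 bases, against 7127 exon bases in the annotation. Its low level may therefore not speak for the whole gene.

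Markers of the other cell types that carry Notch genes overlapped between the groups. The 12 endothelial markers, led by Esam and Pecam1, summed to 50.3 to 55.4 RPKM in Sox2 KO and 42.3 to 60.5 RPKM in Sox2 WT, with a median log2 fold change of 0.01. For the 8 smooth muscle and pericyte markers, led by Acta2 and Tagln, the sums were 428 to 634 RPKM in Sox2 KO and 424 to 662 RPKM in Sox2 WT. The 7 fibroblast markers, led by Col3a1 and Dpt, summed to 462 to 506 RPKM in Sox2 KO and 409 to 546 RPKM in Sox2 WT. The 8 leukocyte markers, led by Cd68 and Csf1r, summed to 11.8 to 19.5 RPKM in Sox2 KO and 10.4 to 18.2 RPKM in Sox2 WT. The 6 epithelial markers, led by Krt19 and Krt8, summed to 4990 to 5210 RPKM in Sox2 KO and 3540 to 6260 RPKM in Sox2 WT. In each of these 5 lists the sums overlapped, 0 markers passed in limma and 0 had an unadjusted p under 0.05. The 7 duodenal markers, led by Vil1 and Apoa4, summed to 114 to 129 RPKM in Sox2 KO and 117 to 145 RPKM in Sox2 WT. Of the 4 tested, 0 passed in limma (0.0285% of all tested genes) and 1, Alpi, had an unadjusted p under 0.05 (3.15%). The log2 fold changes of Vil1 (0.11) and Apoa4 (0.31) were positive and those of Fabp2 (-0.17) and Alpi negative. Alpi, alkaline phosphatase of enterocytes, was at 2.25, 6.76 and 5.3 RPKM in Sox2 KO and 8.73, 6.27 and 17.6 RPKM in Sox2 WT (log2 fold change -1.1, SE 0.449). Sis, sucrase-isomaltase of enterocytes, was at 0 in all 6 libraries, and Lct was at most at 0.0168 RPKM. Cdx2, also under the filter, was at 0.134, 0.792 and 0.653 RPKM in Sox2 KO and 0.238, 0.0158 and 0.278 RPKM in Sox2 WT. It rested on 9, 52 and 50 reads in Sox2 KO and 13, 1 and 16 reads in Sox2 WT, and the groups overlapped.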

How the data were processed

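RNA sequencing of mouse pylorus in 6 libraries, 3 Sox2 KO and 3 Sox2 WT, was analysed from RPKM computed and deposited by the authors. Build mm10 and the tools CASAVA 1.7 and STAR are named per the submitters' processing notes. Not given in the sources used here: read counter, annotation, filters and strandedness. Each single-library table holds the same values as the series table. Coordinates come from GENCODE mouse release 21 (GRCm38, the same build), which matched 37607 of 39179 identifiers. The members, gene lists and ratios were chosen with earlier results of these data known.

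The main test was limma 3.58.1 (R 4.3.3) on log2(RPKM + 0.5) with a mean-variance trend, keeping genes that averaged 0.5 RPKM or more and the highest row per symbol. The pipeline was tested on simulated data with planted changes far larger than those of the members, so that test does not bear on changes of their size. Differences on that scale (Sox2 KO minus Sox2 WT) understate changes of low genes. Exact permutation tests used scipy 1.17.1. Whole reads came out for 99.7% of the 21724 genes above 0 in at least 2 libraries, within 1e-04 reads. They are the smallest whole-number solution, summing to 16630285 to 23787233 per library, and served for depth and for voom. These sums are 68.9% (Sox2 WT replicate 1) to 77.5% (Sox2 KO replicate 1) of the denominators. Very abundant genes such as Tff1, Gkn2 and Agr2 had no recovered reads, so the library sizes in voom leave them out.

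Named genes are all members, from each role of the Notch list the 2 of highest mean level, the 4 most abundant secretory factors, the 2 of highest level in the goblet list, and the 3 genes with profiles nearest to Hes1 and to Atoh1. Pou2f3, Neurog3, Insm1, Neurod1, Spdef, Gfi1, Crebbp, Itln1, Zg16, Alpi, Fabp2, Sis, Lct, Cdx2, Muc2 and Ang4 were added after their values were seen. A further gene of the secretory factor list is not reported here. Of each marker list the 2 most abundant genes are named, with the list's summed RPKM. Alternatives were pseudocounts of 0.1 and 1, other filters, median-of-ratios scaling, quantile normalization, no variance trend, robust variances, a replicate block, sex as a covariate, male libraries alone, voom, and each library left out in turn.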

Additional observations from a re-analysis of the deposited data

How the results depend on the processing

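In none of the 19 alternatives did a member or another Notch pathway gene pass the threshold, and the limma adjusted p of the members ran from 0.954 to 1.00. Over all genes, the number past the threshold was 4; it was 1 with the replicate block or a sex term, 0 in the male libraries alone (583 at an unadjusted p under 0.05), 7 by voom, and 1 to 8 when 1 library was left out (7 without Sox2 WT replicate 1, 8 without Sox2 KO replicate 1, and 1 without Sox2 WT replicate 3 or Sox2 KO replicate 2); the cause was not tested. The labels do not say whether the replicate numbers pair the libraries. Deviations of same-numbered libraries correlated at 0.00879, 0.097 and -0.074 over the tested genes, and those of differently numbered libraries at -0.158 to 0.165. With 3 libraries in each group these values cannot settle it. Small fold changes changed sign. Notch1, 0.02 on the log2 scale, was -0.003 under median-of-ratios scaling, -0.004 under quantile normalization, -0.03 by voom, -0.148 with a sex term or male libraries alone, and -0.066 to 0.098 with 1 library left out. Under those same settings for sex Jag2 was -0.114 and Hes1 0.172. With 1 library left out, Dll1 ran from -0.172 to 0.188, Hey1 from -0.037 to 0.544 and Spdef from -0.054 to 0.168. The log2 ratio of Notch2 to Notch1 stayed negative, from -0.40 to -0.21. At 39 to 206 reads a library, Hey1 and Dll1 are the tested members that depth limits most.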
